A study of Mus musculus with 11 samples.

Results

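The 9 genes described here carry fatty acids from blood lipoproteins into a cell, store them in lipid droplets and release them again: Lpl, Gpihbp1, Cd36, Fabp4, Fabp5, Plin2, G0s2, Pnpla2 and Lipe. They were chosen by name, and all 9 were found as rows among the 23507 gene rows of the count matrix. The question was how lipase, anchor, uptake and droplet genes were divided between adipose stem cells (ASC), endothelial cells (EC), mural cells and macrophages. The cells were the stromal vascular fraction (SVF, the cells other than adipocytes) of perigonadal white adipose tissue (pgWAT), the fat beside the gonads. They came from untreated male and female mice of the C57BL6/J background that carry the transgene Tg(Pdgfrb-eGFP). In these mice green fluorescent protein marks cells in which the Pdgfrb promoter is active, so ASC and mural cells are both marked. The animals were adult by the study's methods, and the age of each is not in the labels. The labels name 7 mouse ids, of which 1, 4 and 8 were male and 2, 3, 5 and 6/7 were female. The id 6/7 covers 2 animals, which were not separated by plate.

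Triglyceride in circulating lipoproteins is too large to enter a cell and is first split by lipoprotein lipase, the product of Lpl. The enzyme is secreted by parenchymal cells, and Gpihbp1, a protein anchored in the membrane of capillary EC, binds it and carries it to the vessel lumen. Cd36 is a surface receptor that takes up the released fatty acids, and Fabp4 and Fabp5 bind them inside the cell. Plin2 coats small lipid droplets. Pnpla2 (adipose triglyceride lipase) starts the breakdown of stored triglyceride, G0s2 binds and inhibits that enzyme, and Lipe (hormone-sensitive lipase) cleaves the diglyceride that results. Adipocytes express nearly all of these genes, and floating adipocytes are removed when SVF is prepared.

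The 3261 cells lay on 11 plates, sorted as CD45-negative (CD45 marks blood-derived cells) and then by the Pdgfrb reporter, by CD31 (an EC surface protein) and, in mouse 2, by DPP4 (a surface protein of some ASC). Reads in genes ran from 141935 to 3526227 per cell with a median of 616939, and the Smart-seq2 protocol counts reads and not molecules. Clustering that left out the 9 genes gave 2250 ASC-like cells, 559 blood EC-like, 60 pericyte-like, 41 vascular smooth muscle cell (VSMC)-like and 137 macrophage-like cells. The labels' cell type is SVF, and the 4 classes each had their own markers: the sum of the 4 ASC markers (Pdgfra, Col1a1, Dcn, Lum) was 6764 to 21121 CPM (reads per 1000000) in the ASC-like cells of a mouse and 8.04 to 45.0 CPM in EC-like cells. Counts of a class were added up within each mouse that held 10 or more of its cells. This gave 7 sums for ASC-like cells, 5 for EC-like cells (mice 1, 8, 2, 5 and 6/7), 2 for mural-like cells (pericyte-like plus VSMC-like, mice 1 and 2) and 2 for macrophage-like cells (mice 1 and 5). EC-like cells of mouse 1 stood apart, since 171 of the 178 cells of 1 EC-like cluster were theirs. Of the 11 plates, 3 held at least 10 cells of both EC-like and ASC-like cells, and in mice 1 and 2 all but a few cells of these classes came from different plates.

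Transcription of several of these genes is known to respond to the nuclear receptor PPARG, which binds paired copies of the letters AGGTCA. RefSeq promoters of GRCm38.p6 were matched for 5 of the 9 genes: Cd36, Plin2, G0s2, Pnpla2 and Lipe. The 250 bases before the start site are printed for 3 genes that stood for 3 kinds of pattern described below, with Cd36 highest in EC-like cells, Plin2 present in all 4 classes and G0s2 highest in ASC-like cells. They lie on the minus strand at chr5:17835897-17836146 (Cd36), chr4:86670060-86670309 (Plin2) and chr1:193273189-193273438 (G0s2), are written 5′ to 3′, and capitals mark AGGTCA or its reverse complement TGACCT.
Cd36: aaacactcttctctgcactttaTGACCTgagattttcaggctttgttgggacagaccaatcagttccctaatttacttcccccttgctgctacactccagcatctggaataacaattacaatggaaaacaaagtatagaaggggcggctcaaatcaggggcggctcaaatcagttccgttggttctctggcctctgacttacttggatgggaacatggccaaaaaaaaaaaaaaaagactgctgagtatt
Plin2: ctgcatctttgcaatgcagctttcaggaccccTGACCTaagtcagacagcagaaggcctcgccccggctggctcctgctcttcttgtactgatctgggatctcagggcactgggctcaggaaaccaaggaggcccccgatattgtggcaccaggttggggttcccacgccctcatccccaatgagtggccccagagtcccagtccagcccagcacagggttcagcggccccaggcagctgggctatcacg
G0s2: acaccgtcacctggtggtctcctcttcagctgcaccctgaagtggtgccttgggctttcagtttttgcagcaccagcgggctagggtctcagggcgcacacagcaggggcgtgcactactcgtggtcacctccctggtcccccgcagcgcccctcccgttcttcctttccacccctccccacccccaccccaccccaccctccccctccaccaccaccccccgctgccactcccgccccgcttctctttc
Cd36 and Plin2 held 1 match each and G0s2 held 0, as did Pnpla2 and both listed promoters of Lipe, which like Cd36 were higher in EC-like cells. Such a match is a description, since 14% of the 32851 promoter windows of this length in the table held the same 6 letters on either strand.

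EC-like and ASC-like cells were compared within animals. EC-like cells held the anchor, the uptake receptor, both binding proteins and both lipolytic enzymes at the higher level, while G0s2 was lower. Called genes passed an adjusted p below 0.05 and a fold change above 2.6 in the quasi-likelihood F test of edgeR with Benjamini-Hochberg adjustment over all genes tested. On that rule 6 of the 9 genes were called higher in EC-like cells, where 8.20% of 12842 tested genes were, and 1 was called lower, where 13.6% were (21.8% in either direction). The median log2 fold change of the 9 was 3.92, and that of all genes tested was -0.19. Values below are CPM scaled with TMM factors (a scaling between libraries), unless stated otherwise.

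Gpihbp1 was at 1280, 1530, 1760, 1420 and 1480 CPM in the EC-like cells of mice 1, 8, 2, 5 and 6/7, and in ASC-like cells the lowest, median and highest of the 7 mice were 0.0236, 0.243 and 1.31 CPM. The anchor was therefore at 1.31 CPM at most in ASC-like cells, and the groups did not overlap. The log2 fold change was 11.44 (SE 1.37), with an adjusted p of 0.00029 in edgeR. The ASC-like value rests on 448 reads in all, between 5 and 208 per mouse.

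Lpl had the opposite order. EC-like cells held 258, 384, 400, 341 and 392 CPM, and ASC-like cells 368 at the lowest, 655 at the median and 1360 at the highest. On this TMM scale ASC-like cells held more lipase transcript in each of the 5 mice with both classes, but the ranges of the groups overlapped. On library totals mouse 8 went the other way, with Lpl at 271 CPM in ASC-like and 300 CPM in EC-like cells. The log2 fold change was -1.03 (SE 0.289, adjusted p 0.026 in edgeR), which is under the fold limit, so Lpl was not called.

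**Figure D1:**
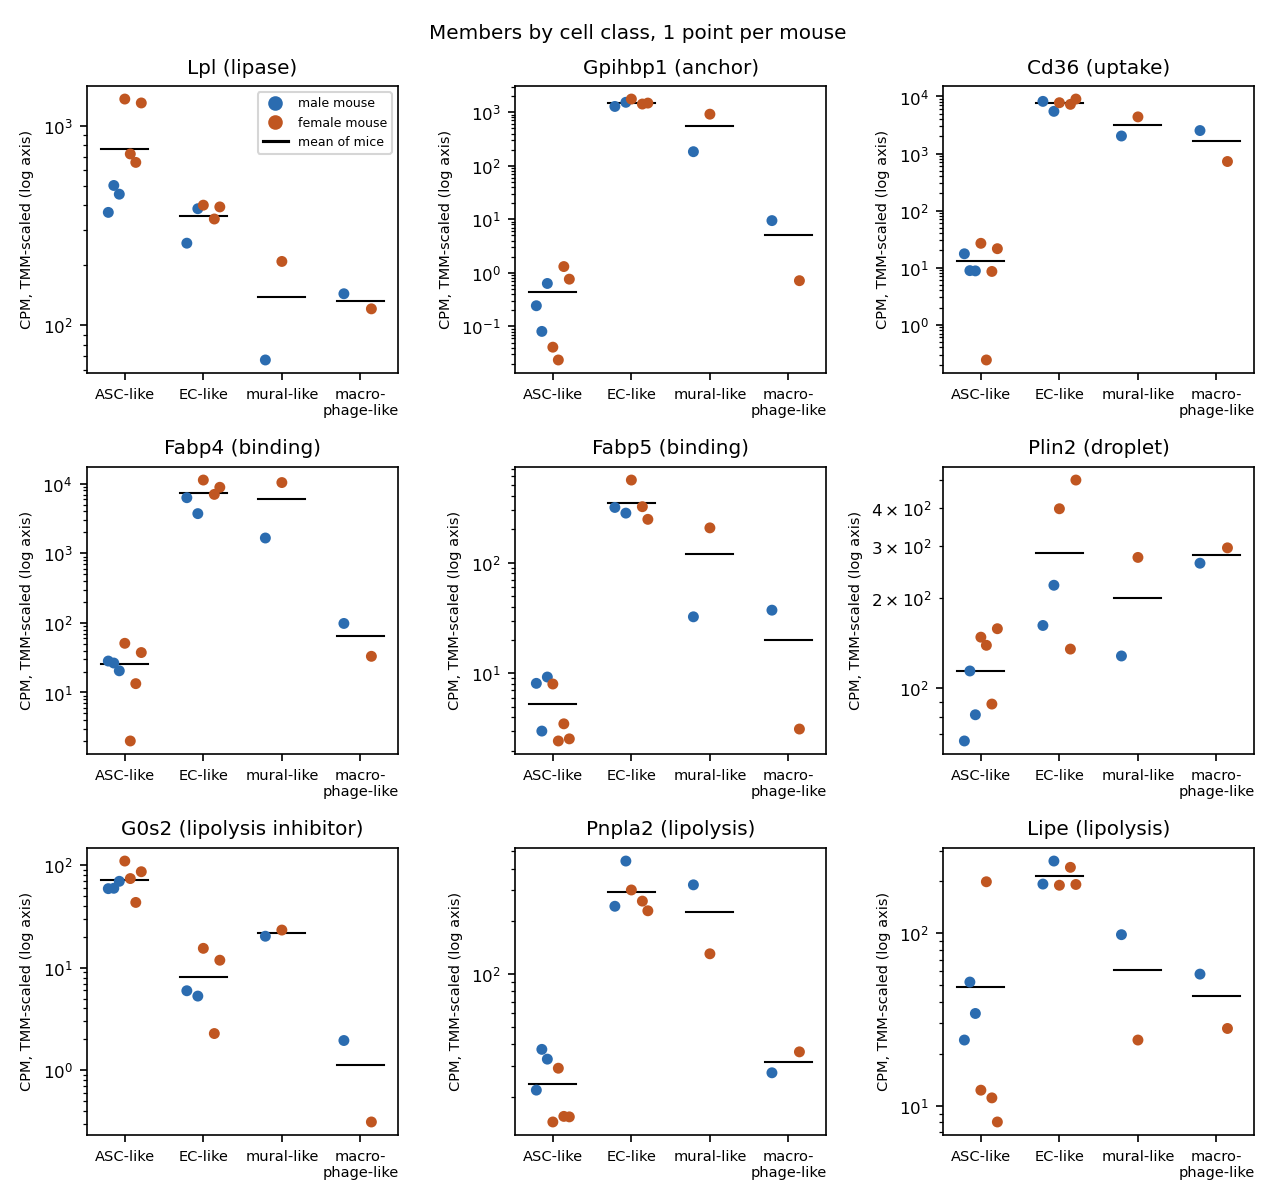
Level of each of the 9 genes (log axis, CPM scaled with TMM factors) in the 4 cell classes, with 1 point per mouse (blue male, orange female) and a line at the mean of the mice. Lpl and G0s2 are highest in ASC-like cells, Gpihbp1, Cd36, Fabp4, Fabp5, Pnpla2 and Lipe have their highest mean in EC-like cells, and Plin2 lies within 66.4 to 498 CPM in all classes.

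The uptake receptor Cd36 reached 8210, 5490, 7780, 7280 and 9020 CPM in EC-like cells. In ASC-like cells its lowest, median and highest values were 0.241, 8.87 and 26.7 CPM. No EC-like value came near the ASC-like range, and the log2 fold change was 9 (SE 0.422, adjusted p 4.1e-06 in edgeR).

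Both fatty acid binding proteins followed Cd36. Fabp4 was at 6300, 3720, 11300, 7030 and 8890 CPM in EC-like cells and at 2.01, 26.5 and 50.9 CPM (lowest, median, highest) in ASC-like cells. Its log2 fold change was 8.04 (SE 0.49, adjusted p 1e-05 in edgeR). Fabp5 was the weaker of the pair, with 315, 280, 557, 320 and 246 CPM in EC-like cells against 2.45, 3.5 and 9.26 CPM, and a log2 fold change of 5.93 (SE 0.68, adjusted p 0.00023). Neither gene overlapped between the classes.

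Plin2, the droplet coat, differed little by comparison. EC-like cells held 162, 221, 399, 135 and 498 CPM, and ASC-like cells 66.4, 114 and 158 CPM. It was higher in EC-like cells in 5 of 5 mice, but at a log2 fold change of 1.29 (SE 0.205, adjusted p 0.0014 in edgeR) it stayed under the fold limit. With library totals in place of TMM factors, without mouse 5, or with each cell classed by its own markers, its log2 fold change was 1.47, 1.51 and 1.40, over that limit.

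G0s2, the inhibitor of Pnpla2, fell from ASC-like to EC-like cells. Its EC-like values were 5.95, 5.28, 15.4, 2.28 and 11.8 CPM, all under the lowest ASC-like value of 43.1 CPM, with a median of 69.2 and a highest value of 109 CPM. The log2 fold change was -3.40 (SE 0.373, adjusted p 0.00018 in edgeR). Pnpla2 itself went the other way, with 244, 441, 302, 261 and 230 CPM in EC-like cells and 14.5, 22 and 37.5 CPM in ASC-like cells. The groups did not overlap at a log2 fold change of 3.92 (SE 0.289, adjusted p 2.5e-05).

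Lipe was at 192, 261, 189, 240 and 191 CPM in EC-like cells, and at 8.05, 24 and 198 CPM in ASC-like cells. Mouse 3 alone gave the highest ASC-like value, and the next was 52 CPM, so the ranges overlapped through 1 mouse that has no EC-like cells. The log2 fold change within animals was 3.82 (SE 0.377, adjusted p 0.00011 in edgeR). Exons of Lipe overlap those of the antisense gene 4732471J01Rik, and strand is not stated to have been used in the counting, so reads of this pair cannot be told apart.

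**Figure D2:**
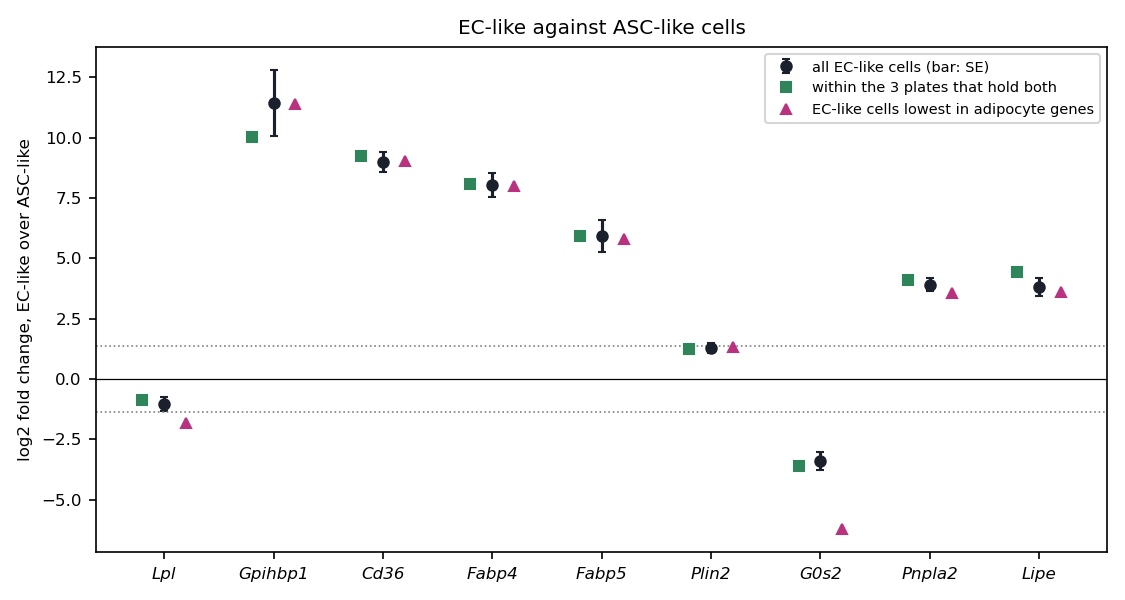
Log2 fold change of each gene, EC-like over ASC-like cells, in all EC-like cells (black circles, bars are 1 SE), within the 3 plates that hold both classes (green squares) and in the EC-like cells lowest in adipocyte genes (purple triangles). Dotted lines mark a fold of 2.6, and all but Lpl, Plin2 and G0s2 lie between 3.56 and 11.44.

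Reads of adipocyte genes moved with EC-like cells. The summed level of 10 genes that mark adipocytes (Adipoq, Cfd, Retn, Lep, Car3, Plin1, Plin4, Cidec, Adrb3, Thrsp) was 1134 to 3283 CPM in the EC-like cells of a mouse (library-total CPM), against 1.98 to 34.7 in ASC-like, 147 and 719 in mural-like and 119 and 188 CPM in macrophage-like cells. Of these 10 genes, 9 were called higher in EC-like than in ASC-like cells. Only 2 of 559 EC-like cells had no read of the list, and 1171 of 2250 ASC-like cells had none. Because most of the 9 genes are expressed in adipocytes, each EC-like level was read again in EC-like cells ranked by that list within their mouse and split into 3 groups of like size (186 cells in the lowest and 186 in the highest).

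From the lowest to the highest group the adipocyte list rose from 261 ± 153 to 5278 ± 2189 CPM (SD, n = 5 mice). Over the same groups the endothelial set was close to level: Gpihbp1 went from 1607 ± 657 to 1664 ± 776 CPM, Cd36 from 8640 ± 4108 to 8260 ± 3473 and Fabp4 from 8399 ± 5077 to 9528 ± 5968. Fabp5 and Plin2 likewise had median ratios of 1.12 and 0.931 between the groups. Lpl, by contrast, was higher in the highest group in 5 of 5 mice, at 532 ± 259 against 227 ± 104 CPM. G0s2 went from 2.2 ± 2.87 to 20.9 ± 17.5 CPM, Pnpla2 from 237 ± 62.7 to 428 ± 141 and Lipe from 200 ± 64.6 to 303 ± 63.9, each in 5 of 5 mice. These are descriptions with no test, and the part of adipocyte reads in the levels of these genes was not tested.

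When EC-like cells of the lowest group alone were compared with ASC-like cells, 8 of the 9 genes were called, where 2504 of 12484 tested genes were. This split was chosen after the data were seen. Gpihbp1, Cd36, Fabp4, Fabp5, Pnpla2 and Lipe kept log2 fold changes of 11.40, 9.03, 8.02, 5.80, 3.56 and 3.62. Lpl moved to -1.82 (adjusted p 0.0031 in edgeR) and was now called lower in EC-like cells, and G0s2 moved from -3.40 to -6.23. Within the 3 plates that held both classes, 7 of the 9 genes were called, where 1356 of 7882 tested genes were. Lpl was at -0.88 (adjusted p 0.16 in edgeR) and Plin2 at 1.24 (adjusted p 0.072) in that fit.

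**Figure D3:**
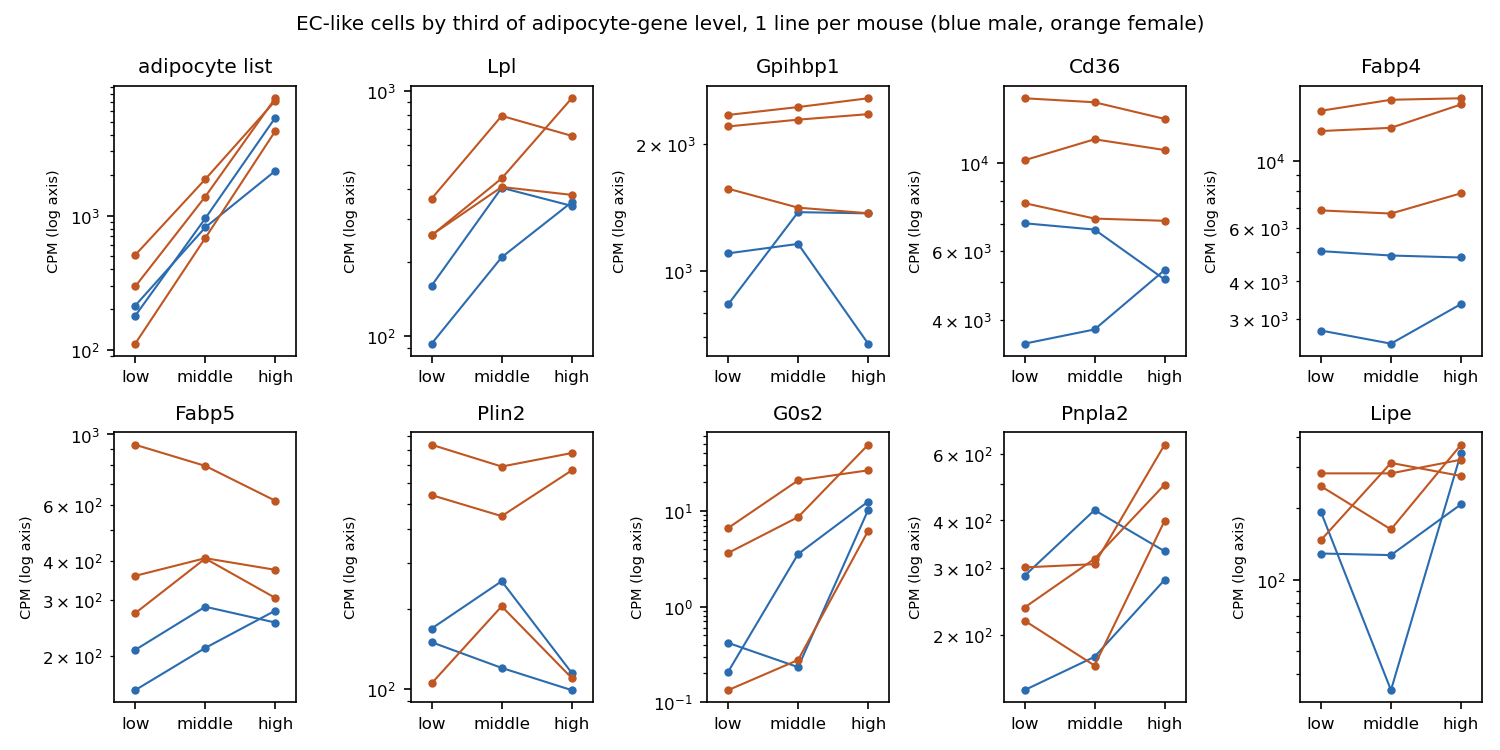
Level of the adipocyte list and of each gene (log axes, library-total CPM) in EC-like cells of the low, middle and high group of adipocyte-gene level, with 1 line per mouse (blue male, orange female). Lpl, G0s2, Pnpla2 and Lipe end above their starting level in 5 of 5 mice, whereas Gpihbp1 does so in 3, Cd36 in 2, Fabp4 in 4, Fabp5 in 4 and Plin2 in 2.

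The share of cells with a read was compared at equal depth. Each cell was thinned to 100000 reads, and intervals are exact 95% binomial ones that cover counting error only. Gpihbp1 had a read in 99.5% of EC-like cells (98.4 to 99.9) and in 2.13% of ASC-like cells (1.58 to 2.82), at median depths of 517726 and 669509 reads before thinning. Without thinning the shares were 559 of 559 EC-like cells and 9.96% of ASC-like cells. Macrophage-like cells had at least 1 such read in 33.6% of cells (25.7 to 42.1) but 10 reads in 0 of 137, which allows a share of up to 2.66%. Lpl had a read in 97.0% of ASC-like (96.2 to 97.6), 82.1% of EC-like, 53.5% of mural-like and 62.8% of macrophage-like cells. G0s2 had a read in 62.0% of ASC-like cells (60.0 to 64.1), 25.7% of mural-like cells, 10.2% of EC-like cells and 2.19% of macrophage-like cells. Plin2 had a read in 75.8% of ASC-like, 79.6% of EC-like and 81.8% of macrophage-like cells, but in 49.5% of mural-like cells (19.5% of VSMC-like cells). Lpl and Gpihbp1 were read in the same thinned cell in 81.9% of EC-like cells (78.5 to 85.0) and 2.0% of ASC-like cells (1.46 to 2.67).

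Taking the sum of the 4 class means (library-total CPM) as the whole, ASC-like cells held 57.0% of Lpl and 70.0% of G0s2. They held 0.0185% of Gpihbp1, 0.106% of Cd36 and 0.165% of Fabp4. EC-like cells held 69.4% of Gpihbp1, 62.7% of Cd36, 68.1% of Fabp5, 62.2% of Lipe, 56.0% of Pnpla2 and 51.8% of Fabp4. Plin2 was the most even, with 13.8% in ASC-like, 36.7% in EC-like, 25.2% in mural-like and 24.3% in macrophage-like cells. Only mouse 1 had all 4 classes, and there EC-like cells held 89.4% of Gpihbp1 and ASC-like cells 41.3% of Lpl. In that mouse Plin2 was highest in macrophage-like cells (41.9%, against 29.7% in EC-like cells) and Pnpla2 in mural-like cells (46.9%, against 45.2%). The mural-like share of Fabp4 was 47.8% over the class means and 16.9% in mouse 1. A larger share of a sum over 4 classes does not say how many cells of each class the tissue holds, since the cells were sorted.

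Levels of different genes were compared per kb of the principal transcript (library-total CPM per kb, mean ± SD over mice). In ASC-like cells Lpl led with 221 ± 158 and G0s2 followed with 91.7 ± 47.9 and Plin2 with 70.2 ± 38.4 (n = 7), and the spreads of these neighbours overlap. With the length of all exons joined, G0s2 came first and Lpl followed with 86.9 ± 62 in ASC-like cells, so their order is not settled either. Gpihbp1 came last at 0.541 ± 0.652. In EC-like cells the order began with Fabp4 at 9905 ± 6202, Cd36 at 2984 ± 1324 and Gpihbp1 at 2030 ± 787, and ended with Lpl at 97.7 ± 41.8, Lipe at 64.1 ± 15.5 and G0s2 at 11.6 ± 10.2 (n = 5). Fabp4 and Cd36 changed places in EC-like cells when the length of all exons joined was used, at 1977 ± 1238 and 2388 ± 1059, so their order is not settled. In macrophage-like cells Cd36 (424 ± 250) and Plin2 (124 ± 41.3) led on the principal length (n = 2).

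Of 37 other genes of the pathway, 35 could be tested between EC-like and ASC-like cells, and 11 were called higher and 3 lower. Their median log2 fold change was 0.35, against -0.19 over all genes. Higher in EC-like cells were the regulators Tcf15 (9.78), Meox2 (5.34) and Pparg (3.78), of which Tcf15 and Meox2 are known to act together on fatty acid uptake genes of EC. In the same direction went the receptor Scarb1 (7.06), the caveolar protein Cav1 (4.47), the monoglyceride lipase Mgll (6.68), the acyl-CoA synthetase Acsl1 (3.14), the acyltransferase Dgat2 (5.30) and the droplet genes Cidec (7.87) and Plin1 (5.53). Vldlr, a lipoprotein receptor, and Gpam, the first acyltransferase of glyceride synthesis, were lower, at -6.61 and -2.84, as was the droplet coat gene Plin3 at -2 (24.9 ± 12.3 against 102 ± 24.9 CPM), named after its value was seen. Cidec and Plin1 are also on the adipocyte list above.

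Mural-like cells of mice 1 and 2 were compared with ASC-like cells, and 5 of the 9 genes were called higher (4.31% of all genes tested) and 2 lower (3.85%), with 8.15% called in either direction. The 2 sums differ in make-up, with 44 pericyte-like and 38 VSMC-like cells in mouse 1 and 13 pericyte-like and 0 VSMC-like cells in mouse 2. Those 13 cells all lay on the plate sorted as Pdgfrb-negative and CD31-positive. Gpihbp1 was at 183 CPM in mouse 1 and 918 in mouse 2, Cd36 at 2030 and 4390, and Fabp4 at 1660 and 10400. Fabp5 was at 32.4 and 206 CPM and Pnpla2 at 323 and 131. These values were all above the ASC-like range, with log2 fold changes of 10.17, 7.23, 6.90, 3.44 and 3.63 (adjusted p 0.0075, 7.8e-05, 0.00025, 0.04 and 0.00064 in edgeR). The lipase Lpl was lower, at 67.1 and 209 CPM (log2 fold change -2.63, SE 0.455, adjusted p 0.0093), and so was G0s2, at 20.2 and 23.2 CPM (-2.20, SE 0.539, adjusted p 0.037). Plin2 (0.89, adjusted p 0.093) and Lipe (1.66, adjusted p 0.062) were not called by the quasi-likelihood test of edgeR. Lipe was called by the likelihood ratio test (adjusted p 0.014), by DESeq2 (0.012), with library totals (0.037), without mouse 8 (0.049) and in pericyte-like cells alone (0.045).

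EC markers moved with these mural-like values. In 49 of 60 pericyte-like cells the mean marker level of another class was over 50% of that of their own, and such cells are called mixed. Blood EC markers were part of that rule, so their own contrast between mixed and unmixed cells follows in part from it. The summed level of 5 EC markers (Pecam1, Cdh5, Cldn5, Tie1, Ptprb) was 2649 CPM in mixed and 44.4 CPM in unmixed pericyte-like cells (library-total CPM of the summed cells). Gpihbp1 was at 691 and 16.5 CPM in these, Fabp5 at 147 and 24.5, and Pnpla2 at 141 and 9.54. Cd36 and Fabp4 were at 4078 and 7206 CPM in mixed cells and still at 984 and 2069 CPM in the 11 unmixed ones. VSMC-like cells had fewer EC reads, with 39 of 41 unmixed and the list at 12.7 CPM. In them Gpihbp1 was at 1.81, Cd36 at 79.9 and Fabp4 at 179 CPM, but Pnpla2 was at 335 CPM, above both kinds of pericyte-like cell. By mouse, the 5 EC markers were at 475 CPM in the mural-like sum of mouse 1 and 5050 CPM in that of mouse 2. EC-like cells of mouse 2 held them at 7651 CPM.

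Without mixed cells, mural-like cells remained only in mouse 1, so that this group is 1 sum, assumed to vary like the sums of the other classes. In that fit 3 genes were called higher than in ASC-like cells, namely Cd36 at a log2 fold change of 3.88 (adjusted p 0.014), Fabp4 at 4.18 (adjusted p 0.011) and Pnpla2 at 4.98 (adjusted p 0.0047), all in edgeR. Gpihbp1 moved from 10.17 to 3.69 and Fabp5 from 3.44 to -0.79. Without mouse 2, which gave 13 of the mural-like cells, this group was again the 1 sum of mouse 1. Gpihbp1 was then at 7.81 and Fabp5 at 1.75. Fewer genes were called in that fit, among the members and among all genes tested. The call of Lpl was lost without mouse 1 (adjusted p 0.08), without mouse 2 (0.089), without mixed cells (0.056) and with cells classed by their markers (0.058), at log2 fold changes of -3.08 to -2.53. That of G0s2 was also lost without mouse 1, 6/7 or 8 (adjusted p 0.082, 0.057 and 0.051 in edgeR) and that of Fabp5 without mouse 6/7 (adjusted p 0.078). The part of EC reads in the mural-like levels was not tested beyond these values.

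**Figure D4:**
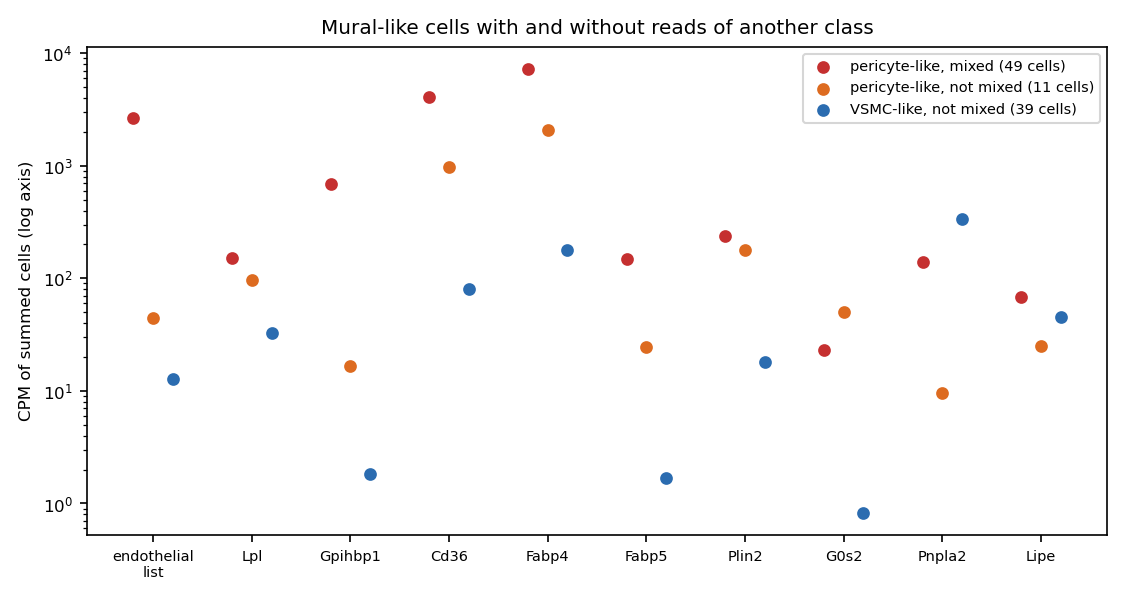
Level of the 5 summed EC markers and of each gene (log axis, library-total CPM) in 49 mixed pericyte-like cells (red), 11 unmixed pericyte-like cells (orange) and 39 unmixed VSMC-like cells (blue), each summed. Gpihbp1 is at 691, 16.5 and 1.81 CPM in these, while Pnpla2 is highest in VSMC-like cells at 335 CPM.

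EC-like and mural-like cells differed by less than the test could call in these 2 mice. Of the 9 genes 0 were called by the quasi-likelihood test of edgeR and 5 had an unadjusted p under 0.05. That test called 2.31% of all genes (0.234% higher and 2.08% lower in EC-like cells). The likelihood ratio test called 3 of the 9 and 887 of all 12842 genes tested, and DESeq2 called 4 of the 9 and 1174 of all. Cd36 had a log2 fold change of 1.77 (SE 0.474, adjusted p 0.11), Fabp4 1.14 (SE 0.568, adjusted p 0.43), Fabp5 2.48 (SE 0.923, adjusted p 0.27) and Plin2 0.40 (SE 0.292, adjusted p 0.61), EC-like over mural-like. Without mixed cells those 4 genes were at 5.09, 3.84, 6.99 and 1.83, but mural-like cells were then the 1 sum of mouse 1, with its spread assumed from the other classes.

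Macrophage-like cells of mice 1 and 5, found although cells were gated as CD45-negative, held Cd36 and Plin2 above ASC-like cells and Lpl and G0s2 below them. Against ASC-like cells 2 of the 9 genes were called higher (5.94% of all genes) and 2 lower (9.10%), with 15.0% called in either direction. Cd36 was at 2530 and 725 CPM, both above the ASC-like range, with a log2 fold change of 6.77 (SE 0.452, adjusted p 8.7e-05 in edgeR). Plin2 was at 262 and 295 CPM, also above that range, with a log2 fold change of 2.00 (SE 0.277, adjusted p 0.0016). The lipase and the lipolysis inhibitor were low: Lpl was at 144 and 121 CPM (-1.99, SE 0.443, adjusted p 0.015) and G0s2 at 1.95 and 0.314 CPM, from 85 and 11 reads (-5.79, SE 0.65, adjusted p 0.00054).

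The call of Lpl was lost without mouse 1 (adjusted p 0.094) and without mouse 5 (0.26), and that of Plin2 without mouse 1 (0.055) and without the mouse block (0.057). Of the 10 adipocyte genes, 7 were called higher in macrophage-like than in ASC-like cells, and their part in these values was not tested. By the rule used for mural-like cells, 44 of 137 macrophage-like cells were mixed, 37 of them in mouse 1. In mixed and unmixed cells Cd36 was at 1014 and 1485, Plin2 at 110 and 257, Lpl at 34.0 and 131 and G0s2 at 0.153 and 1.25 CPM. These are library-total CPM of the summed cells, with no test.

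Gpihbp1 at 9.45 and 0.714 CPM, Fabp5 at 37.2 and 3.14 and Fabp4 at 98.2 and 33.1 were each highest in mouse 1, whose plate of CD31-positive cells held 73 of its 76 macrophage-like cells together with 174 EC-like cells. The 61 macrophage-like cells of mouse 5 shared a plate with 46 EC-like cells. The 5 EC markers were at 27.6 and 6.44 CPM in these macrophage-like sums. The part of EC reads in Gpihbp1, Fabp5 and Fabp4 here was not tested, and mice 1 and 5 also differ in sex and sort. The quasi-likelihood test of edgeR called none of these 3 genes, at log2 fold changes of 3.58, 1.65 and 1.55 (adjusted p 0.15, 0.22 and 0.071). Gpihbp1 was called by the likelihood ratio test (adjusted p 0.038), by DESeq2 (0.0091) and without the mouse block (0.018), and Fabp4 by the likelihood ratio test (0.035) and DESeq2 (0.021). Without mouse 1, macrophage-like cells are 1 sum, and Gpihbp1 and Fabp5 were at -0.22 and -0.35. Fewer genes were called in that fit, among the 9 and among all genes tested. Of the pathway list, 4 genes were called higher in macrophage-like than in ASC-like cells (Lipa, the lysosomal lipase, with Scarb1, Plin1 and Cidec) and 4 lower (Angptl4, an inhibitor of lipoprotein lipase, with Vldlr, Cav1 and Cavin1), named after their values were seen. Lipa was at 183 ± 27.8 CPM against 38.1 ± 7.55 (SD, n = 2 and 7), and Angptl4 at 32.9 ± 20.3 against 360 ± 163.

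EC-like cells held 7 of the 9 genes above macrophage-like cells, where 7.56% of all genes were called higher, 6.32% lower and 13.9% in either direction. The largest log2 fold changes were those of Gpihbp1 at 7.86 (SE 1.87, adjusted p 0.021 in edgeR) and Fabp4 at 6.48 (SE 0.709, adjusted p 0.00058). Fabp5 was at 4.28, Pnpla2 at 3.17, Lipe at 2.64, G0s2 at 2.38 and Cd36 at 2.23. Without mouse 5 or without mouse 1, however, macrophage-like cells are 1 sum, and fewer genes were called, among the 9 and among all genes tested. With each mouse left out in turn, Gpihbp1 ran from 6.50 to 11.87, Fabp5 from 2.86 to 6.41 and Cd36 from 1.41 to 2.96. In the EC-like cells lowest in adipocyte genes G0s2 was at -0.72 (adjusted p 0.76 in edgeR). Mural-like over macrophage-like cells, 3 genes were called higher (6.53% of all genes were, and 10% in either direction): Fabp4 at 5.35 (adjusted p 0.0025), G0s2 at 3.59 (adjusted p 0.0072) and Pnpla2 at 2.88 (adjusted p 0.0058). Without mouse 1, the 1 mouse with both classes, the calls of Pnpla2 (1.64, adjusted p 0.16) and G0s2 (adjusted p 0.073) were lost. With cells classed by their markers that of Fabp4 was lost (3.48, adjusted p 0.055), and with the unnamed clusters added that of G0s2 (adjusted p 0.051).

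Of the smaller classes, the 22 lymphatic EC-like cells from 4 mice had Gpihbp1 at 162 and Cd36 at 100 CPM (library-total CPM of the summed cells, no test). Their Fabp4 was at 30.7 CPM, Lpl at 5.16 and Fabp5 at 0.884, all far under the means of blood EC-like cells. The 19 epithelial-like cells, all of mouse 1, had 0 reads of Gpihbp1, which allows a share of up to 17.6% of cells, and held Cd36 at 0.942 and Plin2 at 0.754 CPM, with Pnpla2 at 53.6 CPM the highest of the 9. A cluster of 123 cells with EC markers (5 EC markers at 2003 CPM) and the adipocyte list at 11213 CPM was left unnamed. It held Lpl at 832, G0s2 at 40.6, Pnpla2 at 671 and Lipe at 469 CPM, above the EC-like means on the same scale (402, 10.1, 315 and 231 CPM), and Gpihbp1 at 1082 and Cd36 at 5006 CPM, below them (1675 and 8573 CPM).

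Males and females were compared next, the contrast for which the series was made. In ASC-like cells 8 of the 9 genes passed the filter on low counts, and 0 were called, where 2.23% of 11821 genes were called (1.55% higher and 0.685% lower in males). The likelihood ratio test and DESeq2 also called 0, and 1 gene had an unadjusted p under 0.05. That gene was Lpl, at 388, 506 and 454 CPM in the 3 males and 1400, 744, 693 and 1340 CPM in the 4 females (scaled within ASC-like cells). Every female was above every male, but the log2 fold change, male over female, of -1.22 (SE 0.354) had an adjusted p of 0.11 in edgeR. Over the alternatives the adjusted p of Lpl ran from 0.009 to 0.31. DESeq2 gave the lowest of these and the likelihood ratio test gave 0.032, both under 0.05 but at a log2 fold change of -1.21 and -1.22, under the fold limit. With library totals in place of TMM factors the log2 fold change was -1.82 (adjusted p 0.077 in edgeR), while the median of all genes moved from 0.04 to -0.60.

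The other ASC-like genes overlapped between the sexes. Plin2 was at 70, 115 and 81.3 CPM in males and 153, 144, 93.4 and 163 CPM in females (-0.64, SE 0.297, adjusted p 0.27 in edgeR). G0s2 was at 61.9, 59.7 and 69.2 against 112, 75.9, 45.6 and 88.4 CPM (-0.34, adjusted p 0.58). For both, the female mean was higher, while Pnpla2 was higher in the male mean, at 23.2, 37.8 and 33 against 15, 30.2, 16.5 and 15.9 CPM (0.69, adjusted p 0.27). Lipe was at 25.3, 52.4 and 34.2 CPM in males and 12.7, 205, 11.8 and 8.3 CPM in females (-0.67, SE 1.02, adjusted p 0.75). Without mouse 3, the female at 205 CPM, Lipe was called higher in males, at a log2 fold change of 1.77 (adjusted p 0.032).

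In EC-like cells 0 of 9 genes were called between 2 males and 3 females, where 0.0493% of 8114 genes were called (0.0123% higher and 0.0370% lower in males). No member had an unadjusted p under 0.05, and the other tools called 0. The share over all genes turned on mouse 1, since 677 of 7309 genes were called without that mouse and 741 of 7289 without its EC-like cluster, with 0 members called in either case. Fabp4 was at 6820 and 3980 CPM in males and 11900, 7480 and 9150 CPM in females (log2 fold change -0.82, SE 0.425, adjusted p 0.66 in edgeR). Its groups did not overlap, but the share of all genes without overlap between 2 and 3 mice was not counted. The difference of the sex effects between EC-like and ASC-like cells was tested as an interaction. It called 0 of the 9 genes, where 0.00% of 12205 genes were called, with 3 of the 9 at an unadjusted p under 0.05, and 0 by the likelihood ratio test and DESeq2. Males and females lay on different plates, so plate and sex cannot be told apart.

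ASC-like cells were divided into ASC1a-like (847 cells), ASC1b-like (651) and ASC2-like (752) by marker scores within each mouse that used none of the 9 genes. Since the scores were scaled within each mouse, every mouse holds each group by construction, as with 88, 69 and 87 cells in mouse 1. In the paper's clusters nearly all ASC of mouse 1 lay in ASC2 and ASC1b clusters, and not in its male ASC1a cluster. ASC1a-like thus names the upper range of a score within a mouse. The limits cut a continuous score, so the groups are no cell types, and 542 of 2250 cells lay within 0.25 of a boundary. ASC2 cells are regarded as the less committed progenitors and ASC1a as closer to adipocytes. From ASC1a-like to ASC2-like cells 4 of 8 tested genes were called, all higher in ASC1a-like cells, where 1.72% of 11141 genes were, 1.71% were lower and 3.44% were called in either direction. The median log2 fold change of the 8 was 1.63 and that of all genes was 0.01. Of the 10 adipocyte genes, 2 passed the filter, and both were called higher in ASC1a-like cells: Car3 (3.41, 32.3 ± 37.3 against 1.77 ± 1.39 CPM) and Plin4 (4.35, 5.81 ± 5.77 against 0.262 ± 0.258 CPM). Adipoq was at 0.172 ± 0.283 and 0.188 ± 0.339 CPM, and the part of adipocyte reads in the ASC1a-like values was not tested.

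Lpl had its lowest, median and highest values over the 7 mice at 652, 1080 and 2260 CPM in ASC1a-like and 168, 238 and 721 CPM in ASC2-like cells, with a mean of 678 ± 325 CPM in ASC1b-like cells (SD, n = 7). It was higher in ASC1a-like than in ASC2-like cells in 7 of 7 mice, although the ranges over mice overlapped. The log2 fold change was 1.91 (SE 0.113, adjusted p 2.5e-08 in edgeR). G0s2 was at 82.1, 108 and 189 CPM in ASC1a-like and 12.7, 25.5 and 35.8 CPM in ASC2-like cells, with no overlap (2.32, SE 0.198, adjusted p 6e-07). The study itself named G0s2 as an ASC1a marker on these cells, so its direction is not independent evidence.

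Cd36 and Fabp4 were at low levels in ASC-like cells but graded in the same way. Cd36 was at 0.468, 22.4 and 68 CPM in ASC1a-like and 0.138, 3.04 and 6.41 CPM in ASC2-like cells (3.37, SE 0.577, adjusted p 0.00077 in edgeR), higher in ASC1a-like cells in 7 of 7 mice. Fabp4 was at 3.61, 50 and 121 against 0.872, 6.14 and 13.8 CPM (3.05, SE 0.378, adjusted p 3.4e-05), again in 7 of 7. Mouse 3 had the lowest value of both genes in every ASC-like subtype. Plin2 was at 120, 196 and 226 CPM against 29.6, 76.8 and 137 CPM, in 7 of 7 mice, and its log2 fold change of 1.34 (SE 0.195, adjusted p 0.00016) was just under the fold limit. Without mouse 5 and without mouse 6/7 it was 1.45 and 1.46, over that limit.

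Pnpla2 departed from this grade, while Lipe was higher in ASC1a-like cells in 7 of 7 mice without being called. Pnpla2 was at 25.5 ± 10.1 CPM in ASC1a-like and 28.8 ± 14.1 CPM in ASC2-like cells (SD, n = 7) with a log2 fold change of -0.14 (SE 0.245, adjusted p 0.83 in edgeR), and was higher in ASC1a-like cells in 3 of 7 mice. Lipe had 59.9 ± 77.3 against 42.3 ± 68 CPM (0.77, SE 0.299, adjusted p 0.13) and Fabp5 6.48 ± 4.2 against 3.17 ± 1.85 CPM (0.82, SE 0.54, adjusted p 0.45). Of the 37 pathway genes 31 could be tested, 3 were called higher in ASC1a-like cells (Pparg, Cebpa and Plin4, named after their values were seen) and 1 lower (Mgll). Pparg was at 21.2 ± 7.75 CPM in ASC1a-like and 3.59 ± 3.01 in ASC2-like cells (3.00, SE 0.463, adjusted p 3e-04).

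ASC1b-like cells lay between the other subtypes for Lpl, at log2 fold changes of 0.88 (SE 0.11, adjusted p 0.00046 in edgeR) from ASC1b to ASC1a and 1.03 (SE 0.111, adjusted p 1.3e-05) from ASC2 to ASC1b, both under the fold limit. Between ASC1a-like and ASC1b-like cells 2 genes were called higher, where 0.0898% of all genes were, 0.341% were lower and 0.431% were called in either direction. These were Cd36 (2.90, SE 0.549, adjusted p 0.011) and Fabp4 (1.98, SE 0.358, adjusted p 0.0084). Plin2 (1.08, adjusted p 0.008) and G0s2 (0.94, adjusted p 0.016) passed the adjusted p but not the fold limit. Without mouse 6/7 only 1 gene was called, where 23 of 11103 genes were, since the adjusted p of Cd36 became 0.051 in edgeR. From ASC2-like to ASC1b-like cells G0s2 alone was called, at 1.38 (SE 0.194, adjusted p 0.00015), where 1.66% of all genes were called higher, 1.39% lower and 3.05% in either direction. That value lies on the fold limit, and without mouse 1, 2, 3 or 5 it was 1.33, 1.24, 1.32 and 1.36, under it. Fabp4 had 1.07 (SE 0.355, adjusted p 0.078) in this comparison.

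**Figure D5:**
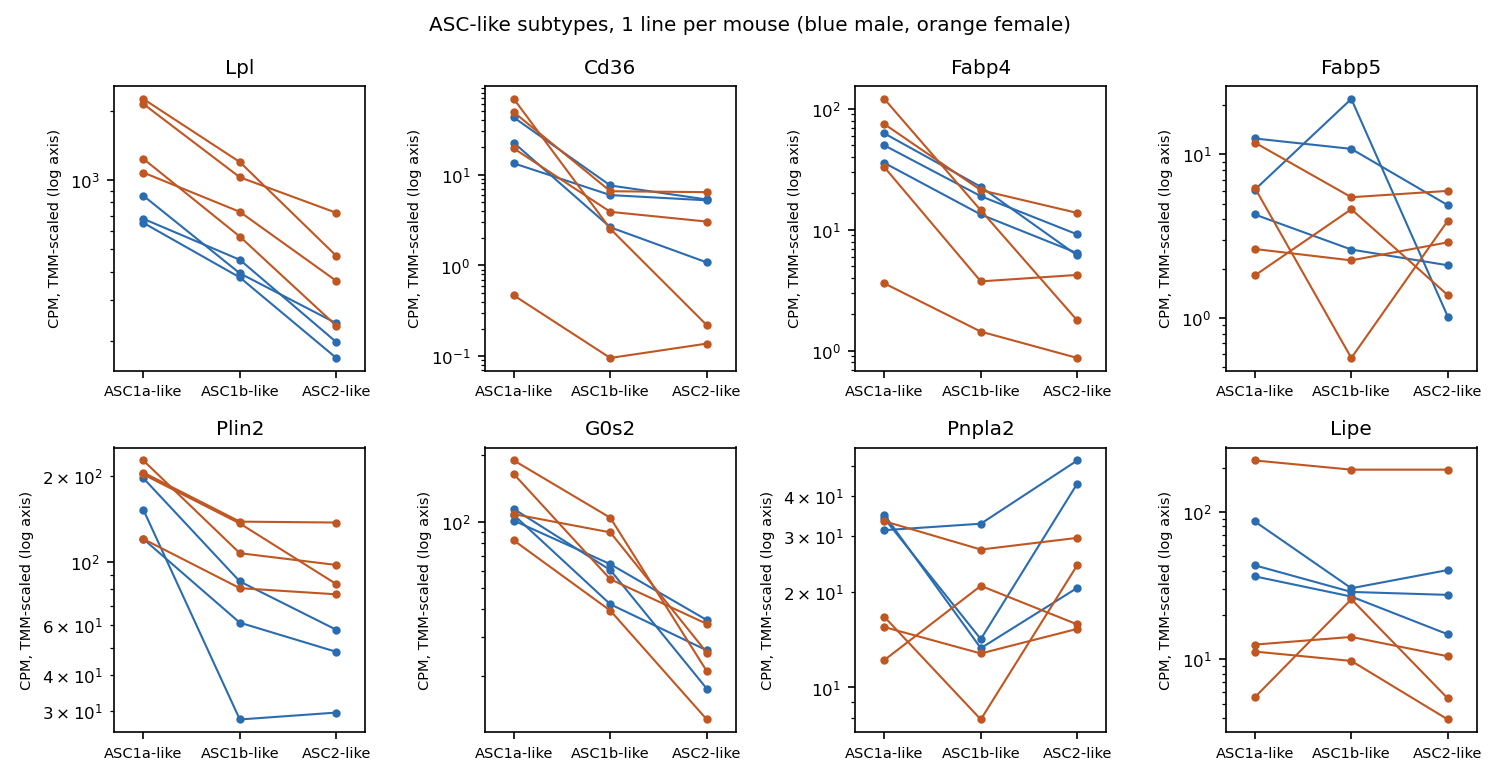
Level of 8 of the genes (log axes, CPM scaled with TMM factors) in ASC1a-like, ASC1b-like and ASC2-like cells, with 1 line per mouse (blue male, orange female). Lpl falls from ASC1a-like to ASC2-like cells in 7 of 7 mice, as do Cd36, Fabp4, Plin2, G0s2 and Lipe, whereas Pnpla2 does so in 3 of 7.

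The sort by DPP4, a marker of ASC2, allowed a look at the same genes in 1 plate each of mouse 2 and so with no replicate and no test. The intervals below are exact Poisson intervals that cover counting error only, and values are library-total CPM over the ASC-like cells of the plate (379 DPP4-positive and 368 DPP4-negative). Of the positive cells 64.9% were ASC2-like, and of the negative ones 1.9%. Lpl was at 1130 CPM (1126 to 1133) in DPP4-positive and 2486 CPM (2480 to 2492) in DPP4-negative cells, with a read in 98.2% and 99.7% of the thinned cells. G0s2 was at 56.2 (55.4 to 57.1) and 235 CPM (233 to 237). Cd36 was nearly absent from the positive plate, at 0.923 CPM (0.818 to 1.04), in 1.58% of cells (0.583 to 3.41), and reached 71.4 CPM (70.4 to 72.4) in 24.7% of cells (20.4 to 29.5) of the negative plate.

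Fabp4 was at 11.9 CPM (11.5 to 12.3) and 125 CPM (124 to 127), and Plin2 at 154 and 239 CPM. Fabp5 was at 8.06 and 13.2 CPM, Lipe at 13.7 and 18.9 and Pnpla2 at 18.5 and 19.7, each also higher on the negative plate. Gpihbp1 had 0 reads on the positive plate and 32 on the negative one. Within ASC1a-like cells of the same mouse Cd36 was at 2.2 CPM on the positive plate (80 cells) and 129 CPM on the negative one (200 cells), and Lpl at 2751 and 3236 CPM.

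EC-like cells were also split, by whether their capillary score was above the higher of their arterial and venous scores, into 255 capillary-like and 304 large-vessel-like cells. This too cuts a continuous score, so the groups are no vessel types and their names rest on the score alone. Of 559 cells 134 lay within 0.25 of the boundary, and median depth was 606409 reads in capillary-like and 460877 in large-vessel-like cells. Of the 9 genes 0 were called, where 0.00% of 7934 genes were called, 4 had an unadjusted p under 0.05, and the likelihood ratio test and DESeq2 called 0. Gpihbp1 was at 1540, 2180, 1920, 1580 and 1810 CPM in the capillary-like cells of mice 1, 8, 2, 5 and 6/7 and at 1220, 1100, 1650, 1460 and 1270 CPM in large-vessel-like cells. It was higher in capillary-like cells in 5 of 5 mice, at a log2 fold change of 0.43 (SE 0.145, adjusted p 1 in edgeR). Fabp4 (0.27, SE 0.081) and Plin2 (0.57, SE 0.156) also went that way in 5 of 5 mice, with an adjusted p of 1. The large-vessel-like cells held Cd36 at 7350 ± 1150 and Fabp4 at 6980 ± 2250 CPM (SD, n = 5).

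The genes whose level over the 16 sums was most like that of each member were found by Pearson's r of log2(CPM + 1). These sums share mice and plates and fall into 4 classes, so the values describe the class pattern. Gpihbp1 lay nearest to the EC genes Cldn5 (0.997), Aqp7 (0.995) and Ptprb (0.995), and Fabp4 to Cldn5 (0.977), Aqp7 (0.975) and Myct1 (0.974). Cd36 was nearest to S1pr1 (0.980), Cd93 (0.977) and Srgn (0.968), and Pnpla2 to Sh2d3c (0.976), Flt1 (0.967) and Arhgef15 (0.966). Fabp5 was nearest to Gm6166 (0.991), annotated as a processed pseudogene, then Ccdc88c (0.968) and Gpihbp1 (0.966), and whether these rows share reads of a like sequence was not tested. The neighbours of the ASC-like pair were others: Lpl had Cyb5a (0.906), Ctsl (0.888) and Spon2 (0.868), and G0s2 had Fxyd1 (0.947), Fstl1 (0.940) and Ccl11 (0.938). Plin2 lay nearest to Arl6ip1 (0.921), Psmb8 (0.914) and Ifi47 (0.901), and Lipe to Ppm1f (0.856), Impdh1 (0.854) and Rgl2 (0.845). Among the 9 genes themselves r was 0.97 between Gpihbp1 and Fabp4 and between Gpihbp1 and Fabp5, 0.67 between Lpl and G0s2, and -0.58 between Lpl and Cd36.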

How the data were processed

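Smart-seq2 cells of 11 plates were used. The authors aligned reads with STAR to mm10 with ERCC spike-ins and quantified genes with Salmon, and the deposited table holds whole-number counts per gene and cell, not normalized; tool versions and the step that made the estimates whole are not given in the sources used here. ERCC rows (1.98% of reads) were left out. The authors had filtered cells on reads, genes, mitochondrial and ERCC shares, and had removed cells placed among another class. Coordinates and lengths came from GENCODE vM21.

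Cells were clustered with Seurat 5.3.0 (3000 variable genes, 14 components, resolution 1.1) without the 9 genes and 37 pathway genes, giving 18 clusters, and clusters were named from marker genes. A cluster with adipocyte genes among its leading genes and one with a high mitochondrial share stayed unnamed. No doublet caller was run. Counts were summed per mouse and class (at least 10 cells) and compared in edgeR 4.0.16 by its two-sided quasi-likelihood test (TMM factors, Benjamini-Hochberg adjustment), for genes above 600 counts in at least 2 sums. The limits of 0.05 and 2.6-fold are the study's, which used the likelihood ratio test. Classes and subtypes were compared with the mouse as a block, because both sums come from 1 animal id. In the comparisons of males with females, p-values measure the spread between mice. In fits with the mouse as a block they measure the spread left after the mouse is taken out, shared over the classes of the fit. Alternatives were the likelihood ratio test, DESeq2 1.42.0, other scalings, filters, class rules and each mouse left out. Software also included matplotlib 3.10.9, pandas 2.3.3, scipy 1.17.1, numpy 2.4.6 and Python 3.11.15, with limma 3.58.1 under R 4.3.3. Each test was also run on counts simulated from a single mean profile without mouse or plate effects, so that run cannot check how such effects act here. The named genes were the 9 members, at most 12 called pathway genes and the 3 nearest genes of each member. The members and lists were chosen with earlier results of these data known.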

Additional observations from a re-analysis of the deposited data

Results flagged for a closer look

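In 4 of 27 groups of 4 to 10 mice checked, 1 mouse stood far from the others by Dixon's criterion, which chance alone gives in about 1 group in 20. Fabp5 in EC-like cells was highest in mouse 2, at 588 CPM (TMM-scaled within the class), where the other 4 mice had 253 to 341 CPM. Lipe in ASC-like cells was highest in mouse 3, at 205 CPM, both among all 7 mice and among the 4 females, where the others had 8.3 to 52.4 CPM. Pnpla2 was also highest in mouse 3 among the females, at 30.2 CPM against 15 to 16.5 CPM. Mouse 3 also had the lowest ASC-like values of Cd36 (0.249 CPM) and Fabp4 (2.07 CPM).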

How the results depend on the processing

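Of 224 alternative counts of called genes, 203 stayed within 1.5 times the count given. Of 1164 alternative fold changes of named members, 1079 kept their direction and side of the threshold, 53 fell short of it, 24 passed it and 8 reversed. Of 44 alternative levels or shares, 27 moved by less than the spread between mice and 17 by more.

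With each cell classed by its own markers, mural-like against ASC-like cells called 2 genes in place of 7, EC-like against mural-like cells 1 in place of 0, and Pnpla2 between male and female ASC-like cells reversed to -0.43. The numbers called over all genes moved the same way in these comparisons of mural-like cells. Without mixed cells mural-like against ASC-like cells called 3, with Fabp5 at -0.79 and Plin2 at -0.55, EC-like against mural-like cells called 4, and mural-like against macrophage-like cells 5 in place of 3. EC-like against mural-like cells called 3 by the likelihood ratio test, 4 by DESeq2, 1 with library totals and 1 in the EC-like cells lowest in adipocyte genes, where G0s2 against macrophage-like cells was -0.72; that split was added after seeing the data, as were leaving out the EC-like cluster of mouse 1 and the length of the principal transcript. Over all genes, EC-like against mural-like cells called 887 of 12842 by the likelihood ratio test, 1174 by DESeq2 and 299 with library totals. In the EC-like cells lowest in adipocyte genes 308 of 12484 were called. With library totals ASC1b-like against ASC2-like cells called 0 in place of 1, where 342 of 11141 genes were called. The cause of these changes was not tested.

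With each mouse left out in turn, the counts ran from 7 to 8 (EC-like against ASC-like), 3 to 7 (mural-like against ASC-like), 2 to 4 (macrophage-like against ASC-like), 2 to 7 (EC-like against macrophage-like), 0 to 1 (sex in ASC-like), 1 to 2 (ASC1a-like against ASC1b-like) and 0 to 1 (ASC1b-like against ASC2-like). The lowest counts with mural-like or macrophage-like cells came from fits in which that class was 1 sum. Fewer of all genes were called in those fits too. Gpihbp1 ran from -0.22 to 5.69 and Fabp5 from -0.35 to 2.86 in macrophage-like against ASC-like cells, and Lipe from -1.04 to 1.77 between the sexes in ASC-like cells.

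The pairing comes from the animals: without the replicate block, 7 genes were still called in EC-like against ASC-like cells, where 3184 of 12842 were. In ASC1a-like against ASC1b-like cells 0 were called in place of 2, where 4 of 11141 genes were. Lipe in macrophage-like against ASC-like cells was -0.18. The sex comparisons have no pairs.

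Library totals moved the median of all genes between the sexes to -0.60 in ASC-like and -0.79 in EC-like cells, and of 310 genes called in ASC-like cells 87 were higher in males, against 183 of 264 with TMM. No value could be had for mural-like cells without any EC marker read, since 0 of 101 cells were such. With 2 mural-like and 2 macrophage-like sums, and 448 reads of Gpihbp1 in ASC-like cells, small differences were not detectable.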
